A study of Mus musculus with 18 samples.

Results

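Chemokines are small secreted proteins that guide the movement of leukocytes through receptors on the cell surface, and the spacing of the first cysteines gives the CC, CXC and XC families their names. The 10 mouse chemokine genes examined here were Ccl3, Ccl4, Ccl5, Ccl6, Ccl9, Ccl17, Ccl22, Cxcl9, Cxcl10 and Xcl1. Every probe set that the array annotation pairs with 1 of these symbols was taken, which gave 11 probe sets among 36701. Of these, 10 lie on the U74A array and 1, a second probe set for Ccl6, on the U74C array. In all, 9 of the 11 probe sets, for 8 of the 10 genes, reached a signal of 60 on at least 2 of 6 arrays and were tested with 23285 probe sets in total. The probe sets for Ccl17 and Cxcl10 stayed under 60 on every array and have levels only.

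The signals come from mouse spleen cells of 3 kinds, called in the labels IKDC, for interferon producing killer-dendritic cells, PDC, for plasmacytoid dendritic cells, and cDC, for the conventional dendritic cells that served as the control. No treatment is labelled, and strain, age and the way the cells were sorted are not given in the sources used here. Each population has 2 samples that the submitters prepared separately, and each sample was hybridised to U74A, U74B and U74C, 18 Affymetrix arrays in all. Whether the samples of a population came from different animals is also not given, so the p-values measure the spread between these samples, part of which may be technical.

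Plasmacytoid dendritic cells are known for releasing type I interferon, and conventional dendritic cells for presenting antigen to T cells. The inflammatory CC chemokines Ccl3, Ccl4 and Ccl5 attract monocytes and lymphocytes and are known products of activated natural killer (NK) cells and CD8 T cells as well as of myeloid cells. Xcl1 reaches the receptor Xcr1 on cross-presenting dendritic cells. Cxcl9 and Cxcl10 are induced by interferons and draw Cxcr3-bearing lymphocytes, Ccl6 and Ccl9 are myeloid chemokines of rodents, and Ccl17 and Ccl22 act on Ccr4-bearing T cells.

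Signals are linear intensities scaled by the authors to a common target per array, and each probe set has its own sensitivity, so levels are compared between samples and not between probe sets. Differences are given as log2 of signal plus 16, with the standard error (SE) of a limma fit over all 3 populations and a p-value with Benjamini-Hochberg adjustment across all 23285 tested probe sets. A probe set was called at an adjusted p under 0.05. Median signals ran from 51.7 to 87.2 over the 18 arrays, and samples of 1 population correlated across probe sets at 0.785 to 0.953. Samples of different populations correlated at 0.707 to 0.817, so these ranges overlapped. On U74C, IKDC replicate 2 and PDC replicate 2 correlated at 0.817, above the PDC samples (0.809) and the cDC samples (0.785). All 10 tested NK markers were called higher in IKDC than in PDC and in cDC, all 8 tested plasmacytoid markers were called higher in PDC than in cDC, and 9 of 11 tested markers of conventional dendritic cells were called lower in IKDC than in cDC. Over all tested genes, 3.50% were called higher and 4.07% lower in IKDC than in cDC. For scale here and below, the shares were 2.25% and 2.75% in PDC against cDC, and 2.71% and 3.17% in IKDC against PDC.

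In the RefSeq gene order of the GRCm38.p6 assembly, 5 of the genes form a cluster on chromosome 11, in the order Ccl5, Ccl9, Ccl6, Ccl3 and Ccl4, with pseudogenes and noncoding genes between some of them. Cxcl9 and Cxcl10 lie on chromosome 5 with Art3 between them. Ccl22 and Ccl17 lie on chromosome 8 on either side of Cx3cl1, and Xcl1 lies on chromosome 1. RefSeq promoter sequences on the same assembly were at hand for 8 of the 10 genes, and those of Ccl4 and Ccl5 were not used here. The 250 bases before the start of 6 genes are shown, each read 5′ to 3′ on the minus strand of the chromosome, because these genes fell into the 2 main patterns of level described below or, in the case of Cxcl10, neighbour one of them.

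Ccl3 (chr11:83649379-83649628) and Xcl1 (chr1:164935523-164935772) had their highest signals in IKDC. Capitals in all 6 sequences mark matches to 5 short motifs searched on both strands. These were GGGNNNTTC (part of a kappaB site), GAAANNGAA (part of an interferon-stimulated response element, ISRE), TTCNNNGAA (interferon gamma activated site, GAS), AGGAAG for ETS factors, and the 5 letters of the CCAAT box.
Ccl3: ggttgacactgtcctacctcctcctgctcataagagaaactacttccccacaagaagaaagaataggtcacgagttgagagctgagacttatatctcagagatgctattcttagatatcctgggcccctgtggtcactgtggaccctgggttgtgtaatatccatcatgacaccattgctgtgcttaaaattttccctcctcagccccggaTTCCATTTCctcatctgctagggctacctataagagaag
Xcl1: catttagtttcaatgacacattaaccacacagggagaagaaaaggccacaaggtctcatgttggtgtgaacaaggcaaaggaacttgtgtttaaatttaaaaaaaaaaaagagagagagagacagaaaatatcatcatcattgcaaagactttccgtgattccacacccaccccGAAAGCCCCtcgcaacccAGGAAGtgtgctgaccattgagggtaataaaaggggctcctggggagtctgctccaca

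Cxcl9 (chr5:92328080-92328329) had signal in cDC alone above the minimum of 60, and its neighbour Cxcl10 (chr5:92348890-92349139) was under that minimum in all 6 samples.
Cxcl9: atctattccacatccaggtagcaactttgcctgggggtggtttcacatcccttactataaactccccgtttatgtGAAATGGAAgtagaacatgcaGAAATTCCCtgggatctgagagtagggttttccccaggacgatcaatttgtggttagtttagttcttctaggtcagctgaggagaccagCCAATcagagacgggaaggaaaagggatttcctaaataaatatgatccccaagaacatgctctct
Cxcl10: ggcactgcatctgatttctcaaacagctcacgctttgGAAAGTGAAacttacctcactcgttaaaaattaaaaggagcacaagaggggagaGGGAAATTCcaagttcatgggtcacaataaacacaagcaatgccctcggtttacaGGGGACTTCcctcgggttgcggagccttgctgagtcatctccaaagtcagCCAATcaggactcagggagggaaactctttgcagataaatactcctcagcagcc

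Ccl9 (chr11:83578637-83578886) and Ccl6 (chr11:83593088-83593337) had their highest signals in cDC. Their mean signals were lowest in IKDC, without a called difference from PDC.
Ccl9: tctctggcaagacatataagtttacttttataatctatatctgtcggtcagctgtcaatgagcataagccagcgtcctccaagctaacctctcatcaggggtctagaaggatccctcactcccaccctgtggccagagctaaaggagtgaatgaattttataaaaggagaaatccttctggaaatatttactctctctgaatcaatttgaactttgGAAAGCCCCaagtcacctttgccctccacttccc
Ccl6: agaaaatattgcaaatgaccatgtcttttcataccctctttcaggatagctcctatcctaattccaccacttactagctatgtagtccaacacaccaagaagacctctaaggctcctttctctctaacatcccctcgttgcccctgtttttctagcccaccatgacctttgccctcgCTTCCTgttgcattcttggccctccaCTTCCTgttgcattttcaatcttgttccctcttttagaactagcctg

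Within these windows, Cxcl10 held the ISRE letters 213 to 205 bases before the start, kappaB-like matches 159 to 151 and 104 to 96 bases before it, and a CCAAT box 54 to 50 bases before it. Cxcl9 held the ISRE letters 175 to 167 bases before its start, a kappaB-like match on the opposite strand 154 to 146 bases before it and a CCAAT box 65 to 61 bases before it. The longest run the Cxcl9 and Cxcl10 windows share is CAGCCAATCAG, 11 bases around that box. Ccl9 held a kappaB-like match on the opposite strand 34 to 26 bases before its start. Ccl6 held 2 ETS matches on the opposite strand, 73 to 68 and 47 to 42 bases before its start, and shares the 13-base run GCCCTCCACTTCC with Ccl9. Xcl1 held an ETS match 58 to 53 bases before its start and a kappaB-like match on the opposite strand 76 to 68 bases before it. Ccl3 held the ISRE letters on the opposite strand 39 to 31 bases before its start. None of the 6 windows held the GAS letters. Among 32851 promoter windows of the same length, the kappaB-like letters occurred in 11.8%, the ISRE letters in 7.13%, the GAS in 7.02%, the ETS letters in 29.5% and the CCAAT box in 33.8%. In a longer form, with C after the kappaB-like letters or A after the ISRE letters, the shares were 4.65% and 2.98%. The ISRE match and both kappaB-like matches of Cxcl10 and the kappaB-like match of Ccl9 have the longer form, and those of Cxcl9, Xcl1 and Ccl3 do not. A match describes the letters and is not a measured binding site.

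The ligands separated into genes highest in IKDC and genes highest in cDC. Against cDC, 8 of the 9 tested probe sets were called in IKDC, 4 of them higher (Ccl3, Ccl4, Ccl5 and Xcl1) and 4 lower (Cxcl9, Ccl9 and both probe sets for Ccl6), where 5.6% of all tested probe sets were called, 2.68% higher and 2.92% lower. In PDC against cDC 2 of 9 were called, both lower (Cxcl9 and Ccl9), beside 3.65% of all tested, 1.73% higher and 1.92% lower. Between IKDC and PDC 3 of 9 were called, all higher in IKDC (Ccl3, Ccl5 and Xcl1), beside 4.45% of all tested, 2.06% higher and 2.39% lower. The 3 comparisons share samples, so they are not independent of one another. The genes were chosen with earlier results of these data known, and Ccl6 counts with 2 probe sets. The shares over all probe sets are therefore given for scale, and the contrast with them is not a test. In samples of many cells, fewer cells of a type and less RNA per cell cannot be told apart.

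**Figure D1:**
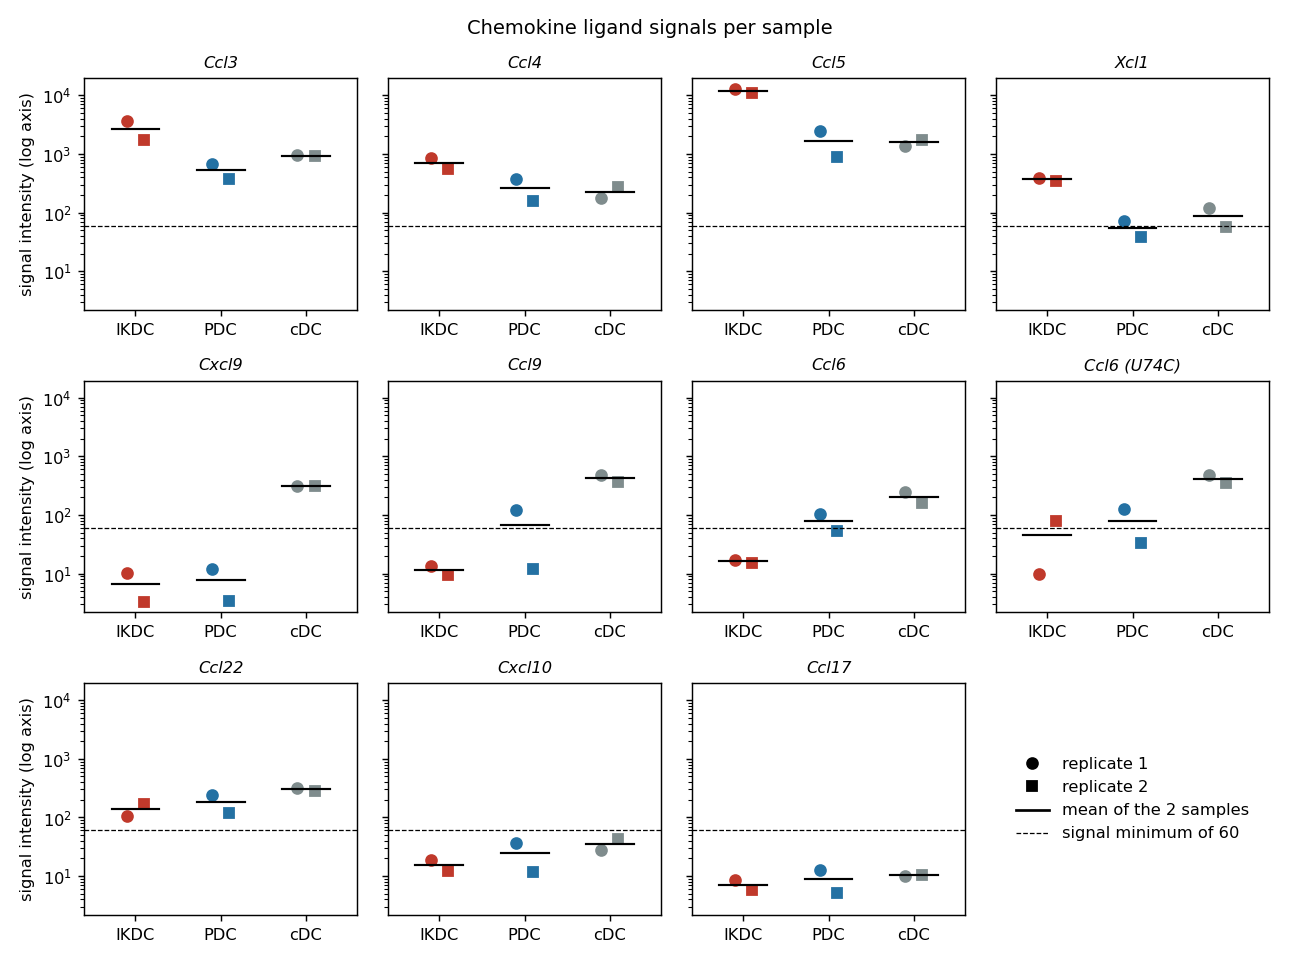
Signal intensity of each chemokine probe set (log axis) in IKDC (red), PDC (blue) and cDC (grey), with replicate 1 as circles, replicate 2 as squares, the mean of the 2 samples as a bar and the signal minimum of 60 as a dashed line. Ccl3, Ccl4, Ccl5 and Xcl1 stand highest in IKDC, Cxcl9, Ccl9 and Ccl6 stand highest in cDC, and Cxcl10 and Ccl17 stay under the dashed line in every sample.

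Ccl5, a chemokine stored and released by cytotoxic lymphocytes, showed the largest difference among the IKDC-high members. It measured 12795.6 and 11068.7 in IKDC, 2474 and 893 in PDC, and 1390.3 and 1746.4 in cDC. Both IKDC samples lay above every other sample, while the PDC and cDC ranges overlapped. The geometric mean in IKDC was 7.64 times that in cDC (log2 difference 2.92 ± 0.40 SE, limma adjusted p = 0.00127) and 8.01 times that in PDC (2.99 ± 0.40, limma adjusted p = 0.00118). PDC and cDC differed by -0.07 ± 0.40 (limma adjusted p = 0.969), with a 95% interval from -0.95 to 0.82. Both IKDC calls for Ccl5 held under all 16 alternative settings tried.

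Ccl3 encodes a chemokine that attracts monocytes, T cells and NK cells, and it had appreciable signal in every population. It measured 3642.8 and 1751.4 in IKDC, 667.5 and 379.7 in PDC, and 940.6 and 915.2 in cDC. The 3 populations did not overlap, with IKDC on top and PDC at the bottom. The IKDC signal was 5.02 times that of PDC by geometric means (log2 difference 2.29 ± 0.37 SE, limma adjusted p = 0.00397) and 2.72 times that of cDC (1.43 ± 0.37, limma adjusted p = 0.0485). PDC lay below cDC by a log2 difference of -0.86 ± 0.37 that did not pass (limma adjusted p = 0.309). The call against cDC was lost in 7 of 16 alternatives, among them leaving out cDC replicate 1 (limma adjusted p = 0.187), cDC replicate 2 (0.179) or IKDC replicate 1, where the difference was 0.91 (limma adjusted p = 0.383). Without that replicate the call against PDC was lost as well, at 1.76 (limma adjusted p = 0.0517).

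Ccl4, the gene next to Ccl3 and likewise an attractant of monocytes and T cells, had signals of 845.9 and 542.4 in IKDC, 372.4 and 160.3 in PDC, and 178.1 and 277.9 in cDC. Both IKDC samples were above the other 4, and PDC and cDC overlapped. IKDC stood at 3.04 times cDC by geometric means (log2 difference 1.54 ± 0.40 SE, limma adjusted p = 0.0486), close to the threshold, and the call was lost in 8 of 16 alternatives. These include leaving out either IKDC sample or either cDC sample, with limma adjusted p from 0.0922 to 0.321. Against PDC the difference of 1.41 ± 0.40 did not pass (limma adjusted p = 0.0841). It passed without PDC replicate 1, at 1.98 (limma adjusted p = 0.019). For PDC against cDC the difference was 0.13 ± 0.40 (limma adjusted p = 0.935), with a 95% interval from -0.75 to 1.01.

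Xcl1, the ligand of the receptor Xcr1 and a known product of NK cells and CD8 T cells, measured 394.5 and 348.1 in IKDC, 73 and 37.9 in PDC, and 119.3 and 56.8 in cDC. The IKDC samples stood apart from the rest, and in PDC and in cDC 1 sample each was under the minimum of 60. Signal in PDC replicate 2 was also under 45.2, the highest signal of the unspiked bacterial controls on U74A. By geometric means IKDC stood at 7.05 times PDC (log2 difference 2.48 ± 0.39 SE, limma adjusted p = 0.00316), a call that held in all 16 alternatives. IKDC stood at 4.50 times cDC (1.96 ± 0.39, limma adjusted p = 0.0122). This second call was lost without IKDC replicate 1 (limma adjusted p = 0.125), without IKDC replicate 2 (limma adjusted p = 0.0865) and without cDC replicate 2 (limma adjusted p = 0.115). PDC and cDC overlapped and differed by -0.52 ± 0.39 (limma adjusted p = 0.636).

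The NK markers, like these 4 ligands, were highest in IKDC. All 10 of 10 NK markers were called higher in IKDC against cDC and against PDC, and their summed signal was 51656.5 and 56922.8 in IKDC, 5707 and 4118.6 in PDC, and 3386.7 and 4379.9 in cDC. Nkg7 on U74C gave 30720.3 and 34970.7 of the IKDC sums. The sums given here and below weigh the brightest probe sets most and need not follow each marker. Within IKDC the 4 ligands were higher in replicate 1, whereas the NK sum and the erythroid sum were higher in replicate 2. The summed T cell markers (928.3 and 603.8 in IKDC replicates 1 and 2) and B cell markers (2008.2 and 739.2) were higher in replicate 1. Of 3 tested T cell markers, 2 were called higher in IKDC than in cDC, and their summed signal was 603.8 to 928.3 in IKDC, 329.9 to 393.8 in PDC and 93.8 to 225.4 in cDC. Of 4 erythroid markers 3 were called higher in IKDC than in cDC, with sums of 14568 and 17082.6 in IKDC, 22622.4 and 9749.2 in PDC, and 1045.4 and 1969.3 in cDC. Hba-a1 alone gave 21120.7 and 8068 of the PDC sums, and 1 of the 4 erythroid markers was higher in PDC replicate 1 than in PDC replicate 2. The T cell genes Cd3e, Cd5, Cd6 and Trac did not reach the minimum or had no probe set with 1 symbol. The part of these marker lists in the chemokine differences was not tested.

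Cxcl9, which is induced by interferon gamma and recruits Cxcr3-bearing lymphocytes, had signal above the minimum in the cDC samples alone. It was thus admitted to testing only through the population in which it was then called high. It measured 10.3 and 3.3 in IKDC, 12 and 3.4 in PDC, and 316.5 and 317.5 in cDC. Every IKDC and PDC value was under 45.2, the highest unspiked control on U74A, so a fold is given as a bound. Cxcl9 was at least 5.28-fold lower in IKDC than in cDC (log2 difference -3.89 ± 0.47 SE, limma adjusted p = 0.000496) and at least 5.28-fold lower in PDC than in cDC (-3.84 ± 0.47, limma adjusted p = 0.000784). Both calls held in all 16 alternatives. With a pseudocount of 64 these log2 differences were -2.43 and -2.41, since differences of so dim a gene depend on that constant. Its neighbour Cxcl10, which acts on the same receptor, measured 18.8 and 12.4 in IKDC, 37.1 and 11.7 in PDC, and 27.9 and 42.4 in cDC. All 6 values were under the minimum, and PDC and cDC overlapped.

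Ccl9, a ligand of Ccr1 made by macrophages and other myeloid cells, measured 13.6 and 9.4 in IKDC, 120.7 and 12.1 in PDC, and 490.6 and 369.7 in cDC. Both cDC samples were above all others, and the 2 PDC samples lay far apart, with 1 of them within the range of the unspiked controls. Only 1 sample outside cDC reached 60, so Ccl9 was admitted to testing through the cDC samples, in which it was then called high. In IKDC it was at least 7.10-fold lower than in cDC (log2 difference -4.01 ± 0.60 SE, limma adjusted p = 0.00216), and the call held in all 16 alternatives. In PDC against cDC the log2 difference was -2.83 ± 0.60 (limma adjusted p = 0.0238), and it was -3.98 without PDC replicate 1 and -1.69 without PDC replicate 2, both still called. That call was lost in 4 of 16 alternatives, 2 of which left out a cDC sample (limma adjusted p = 0.199 without cDC replicate 1 and 0.132 without cDC replicate 2). IKDC and PDC differed by -1.18 ± 0.60, which did not pass (limma adjusted p = 0.417). Without PDC replicate 2 the same difference was -2.32 (limma adjusted p = 0.00911).

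Ccl6 neighbours Ccl9 on chromosome 11 and is likewise a myeloid chemokine of the mouse that acts on Ccr1. On U74A it measured 17.1 and 15.5 in IKDC, 105.1 and 54 in PDC, and 248.9 and 160.2 in cDC. The populations did not overlap and ran from IKDC through PDC to cDC. As with Ccl9, only 1 sample outside cDC reached 60, so the cDC samples admitted this probe set to testing. Ccl6 was at least 3.33-fold lower in IKDC than in cDC (log2 difference -2.74 ± 0.41 SE, limma adjusted p = 0.00224), and without cDC replicate 1 that call fell just outside the threshold (limma adjusted p = 0.051). PDC against cDC gave -1.23 ± 0.41 (limma adjusted p = 0.165) and IKDC against PDC gave -1.51 ± 0.41 (limma adjusted p = 0.0717), neither of which passed. The difference between IKDC and PDC passed in 4 of 15 alternatives, among them without PDC replicate 2, at -1.91 (limma adjusted p = 0.0382), and with a pseudocount of 1, at -2.14 (limma adjusted p = 0.048).

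The second Ccl6 probe set, on U74C, measured 9.9 and 80.6 in IKDC, 126.6 and 33.4 in PDC, and 484.7 and 346.7 in cDC. Its cDC samples were again the highest, and its IKDC and PDC samples overlapped. All 4 IKDC and PDC values were under 148.7, the highest unspiked control signal on that array type. The IKDC against cDC difference was -3.09 ± 0.74 SE (limma adjusted p = 0.037), a call lost in 9 of 16 alternatives, among them leaving out IKDC replicate 1, cDC replicate 1 or cDC replicate 2 (limma adjusted p from 0.143 to 0.238). PDC against cDC was -2.34 ± 0.74 (limma adjusted p = 0.145) and IKDC against PDC was -0.75 ± 0.74 (limma adjusted p = 0.735). Both Ccl6 probe sets were thus called lower in IKDC than in cDC.

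Ccl22, a ligand of Ccr4 that maturing dendritic cells and macrophages release, was detected in all 6 samples without a called difference. It measured 107.9 and 170.2 in IKDC, 244.6 and 119.5 in PDC, and 318 and 288.1 in cDC. The cDC samples were above the rest, and IKDC and PDC overlapped. The log2 difference was -1.07 ± 0.37 SE for IKDC against cDC (limma adjusted p = 0.134), with a 95% interval from -1.87 to -0.26. It was -0.76 ± 0.37 for PDC against cDC (limma adjusted p = 0.371) and -0.31 ± 0.37 for IKDC against PDC (limma adjusted p = 0.79). Ccl17, which shares the receptor Ccr4, stayed between 5.1 and 12.9 in every sample, under the highest unspiked control of its array type. A low signal of this kind bounds the level and does not show that the transcript is absent.

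**Figure D2:**
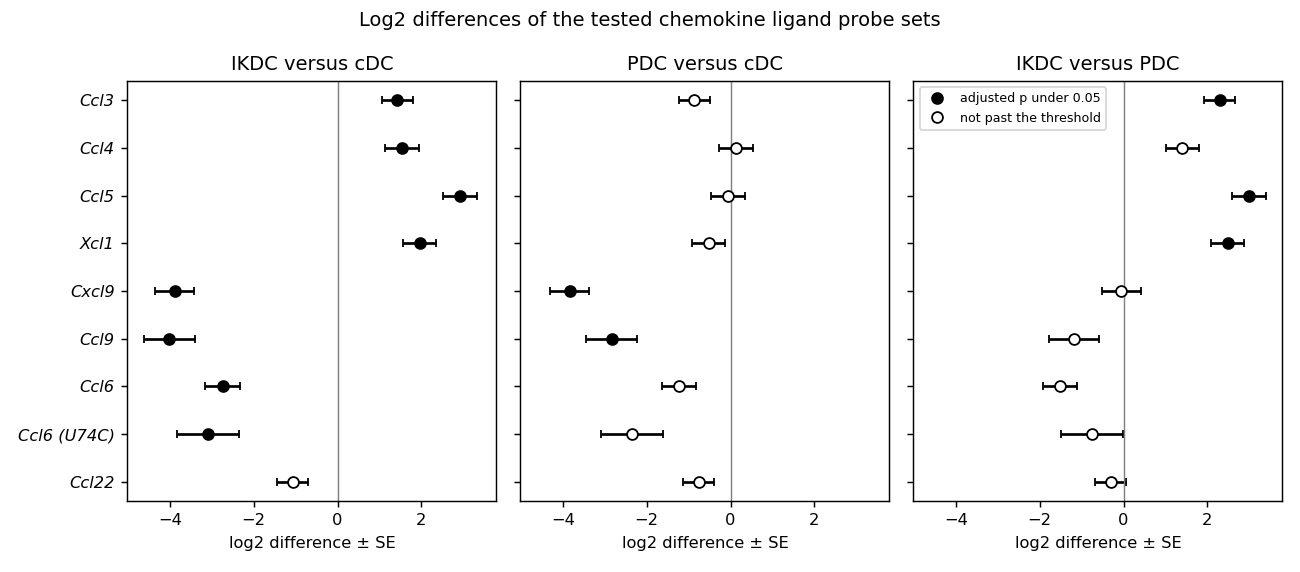
Log2 difference with its SE for each tested chemokine probe set in IKDC versus cDC, PDC versus cDC and IKDC versus PDC, with filled points for an adjusted p under 0.05 and open points for the others. In IKDC versus cDC 4 points are filled on the right and 4 on the left, in PDC versus cDC Cxcl9 and Ccl9 are filled on the left, and in IKDC versus PDC Ccl3, Ccl5 and Xcl1 are filled on the right.

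Most markers of monocytes and macrophages were also called lower outside cDC. Of 10 such markers 9 were called lower in IKDC than in cDC and 7 were called lower in PDC than in cDC, while Cd68 was 1335.8 and 1944 in PDC, against 806.1 and 845.5 in cDC. Their summed signal was 787.3 and 770.5 in IKDC, 2775.6 and 2997.7 in PDC, and 7689.3 and 9795.4 in cDC. Within this list C1qa, a complement subunit of macrophages, measured 15.9 and 16.8 in IKDC, 15.9 and 16.3 in PDC, and 312.1 and 394.3 in cDC. Of 11 markers of conventional dendritic cells, 9 were called lower in IKDC than in cDC and 6 in PDC than in cDC, with sums of 5090.2 to 6542.4 in IKDC, 25087.9 to 25657 in PDC and 48889.4 to 56916 in cDC. Of 5 neutrophil markers 2 were called lower in IKDC than in cDC, with sums of 261.2 to 310.9 in IKDC, 211.6 to 771.1 in PDC and 794.9 to 1656.5 in cDC. The part of these cell types in the chemokine differences was not tested.

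The chemokine signals were shifted in 1 direction between the PDC samples. All 11 member probe sets were higher in PDC replicate 1 than in PDC replicate 2, with a median log2 difference of 0.94, whereas 53.4% of all tested probe sets were higher in replicate 1, with a median of 0.06. The 11 include Ccl17 and Cxcl10, which were under the minimum and not tested. On U74A alone the median was 0.86 for the 10 members, beside 53.0% and 0.05 for its tested probe sets. Over all probe sets of U74A, dim ones included, the median signal was 67.05 in PDC replicate 1 and 52.4 in PDC replicate 2. The spread between the PDC samples ranged from 0.45 for Ccl17 to 2.28 for Ccl9. In IKDC 9 of 11 were higher in replicate 1, with a median of 0.21, beside 50.0% of all tested probe sets. In cDC it was 6 of 11, beside 51.0%. Other lists behaved variously between the PDC samples. All 5 of 5 B cell markers and 5 of 5 neutrophil markers were higher in replicate 1, and 8 of 10 NK markers were, but 3 of 11 markers of conventional dendritic cells and 6 of 10 other chemokine ligands.

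For the Gapdh control probe sets, the signal at the 3' end divided by that at the 5' end gauges transcript length after amplification, and this ratio was 6.0 in PDC replicate 1 and 3.19 in PDC replicate 2 on U74A, against 3.34 and 3.59 in IKDC and 4.74 and 4.13 in cDC. Its part in the difference between the PDC samples was not tested. Ccl4 and Ccl5 show what this spread does to a comparison. Without PDC replicate 1 the difference between PDC and cDC was -0.44 for Ccl4 (limma adjusted p = 0.656) and -0.79 for Ccl5 (limma adjusted p = 0.285). Without PDC replicate 2 it was 0.70 for Ccl4 (limma adjusted p = 0.454) and 0.66 for Ccl5 (limma adjusted p = 0.43).

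**Figure D3:**
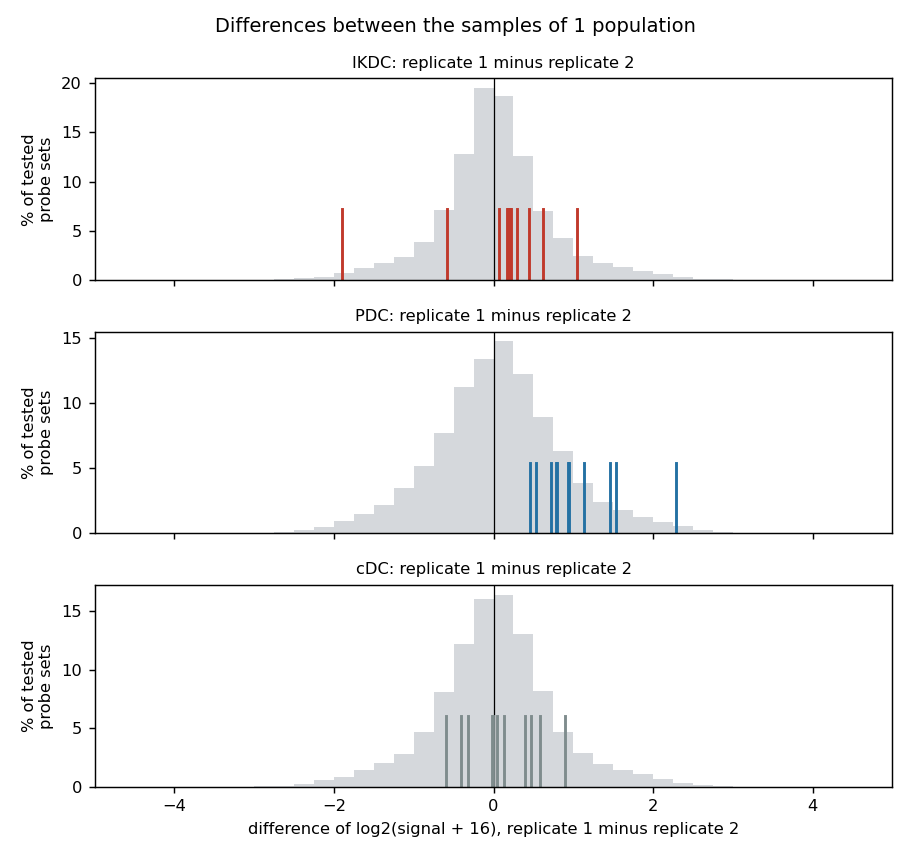
Difference of log2(signal + 16) between replicate 1 and replicate 2 within IKDC, PDC and cDC, as a histogram of all tested probe sets in grey and as coloured lines for the 11 chemokine probe sets. All 11 lines lie right of 0 in PDC, against 9 of 11 in IKDC and 6 of 11 in cDC.

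Among 27 other chemokine ligand genes, 22 had a probe set with 1 symbol and 10 were tested. Limma called 0 of the 10 higher in IKDC or in PDC than in cDC (1 and 0 at an unadjusted p under 0.05), and 3 were called lower in each, Cxcl1, Cxcl2 and Cxcl16 in both cases. Over all 12193 tested genes, each by 1 probe set, 3.50% were called higher and 4.07% lower in IKDC than in cDC, 2.25% higher and 2.75% lower in PDC than in cDC, and 2.71% higher and 3.17% lower in IKDC than in PDC. The median log2 difference of the 10 was -1.03 for IKDC against cDC and -0.81 for PDC against cDC, beside 0.01 and -0.00 over 12193 tested genes. For the 8 tested member genes, those medians were 0.18 and -0.81. Limma called 0 of the 10 other ligands between IKDC and PDC (1 at an unadjusted p under 0.05, lower in IKDC), where the 10 had a median of -0.42 and the 8 members one of 0.68, beside 0.01 over all tested genes.

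Cxcl2, a neutrophil attractant, measured 40 and 4.6 in IKDC, 96.3 and 12.9 in PDC, and 401.3 and 430.5 in cDC. It was at least 6.93-fold lower in IKDC than in cDC (fitted log2 difference -3.67 ± 0.62 SE, limma adjusted p = 0.00441), and its log2 difference was -2.92 ± 0.62 for PDC against cDC (limma adjusted p = 0.0232). Cxcl1, which acts on the same receptor, measured 29.2 and 6.1 in IKDC, 11.4 and 30.2 in PDC, and 144.8 and 148.7 in cDC. All 4 IKDC and PDC values were under the highest unspiked control of U74A, and Cxcl1 was at least 2.45-fold lower than in cDC both in IKDC (limma adjusted p = 0.0206) and in PDC (limma adjusted p = 0.0402). For both genes the cDC samples were far above the other 4. Cxcl1, like Cxcl9, was admitted to testing through the cDC samples alone. Cxcl16, a membrane-anchored ligand of Cxcr6, measured 252.9 and 208.3 in IKDC, 333.4 and 321.3 in PDC, and 660.7 and 921 in cDC on U74B. Its difference was -1.70 ± 0.27 for IKDC against cDC (limma adjusted p = 0.00565) and -1.21 ± 0.27 for PDC against cDC (limma adjusted p = 0.0416). Cxcl17, a mucosal chemokine, was not called. It measured 947.7 and 1215.3 in IKDC, 613.4 and 932.9 in PDC, and 317.7 and 668.8 in cDC.

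**Figure D4:**
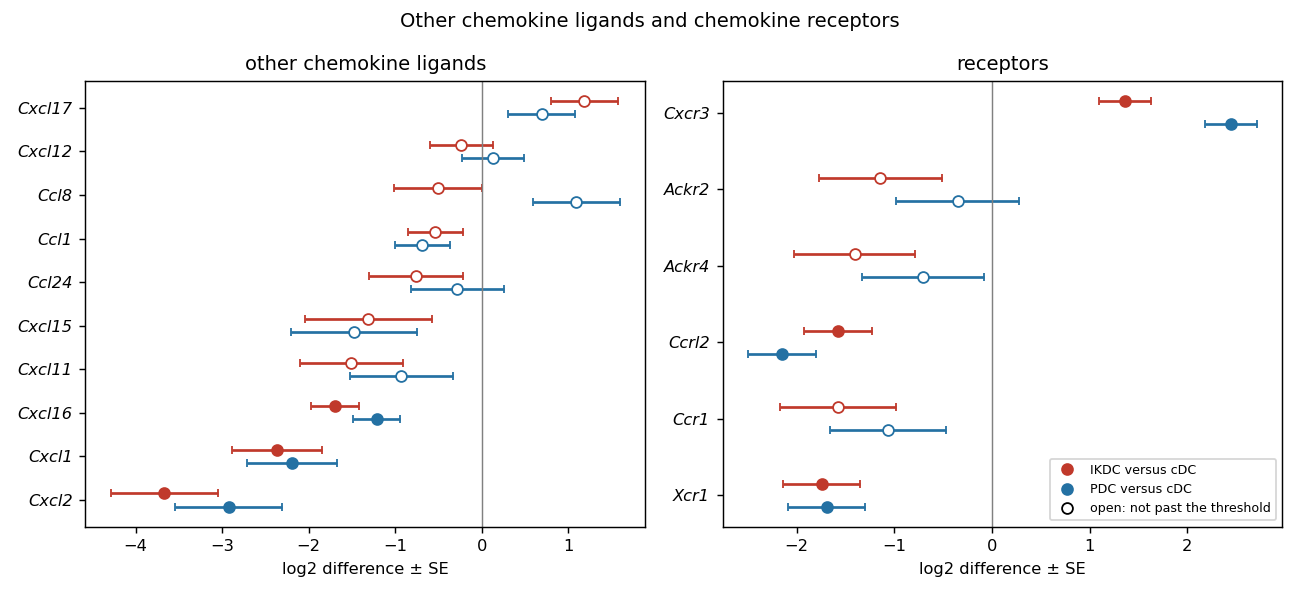
Log2 difference with its SE against cDC for 10 other chemokine ligands (left) and 6 chemokine receptors (right), with IKDC versus cDC in red, PDC versus cDC in blue and open points for values that did not pass. Cxcl1, Cxcl2 and Cxcl16 are filled on the negative side in both comparisons, and Cxcr3 is filled on the positive side in both.

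The receptors of the chemokines were measured on the same arrays, with 6 tested. Cxcr3, the receptor of Cxcl9 and Cxcl10, measured 544.6 and 603.5 in IKDC, 1116.8 and 1361.8 in PDC, and 217.9 and 208.5 in cDC. It was called higher in IKDC than in cDC (log2 difference 1.36 ± 0.27 SE, limma adjusted p = 0.0111), higher in PDC than in cDC (2.45 ± 0.27, limma adjusted p = 0.0004) and lower in IKDC than in PDC (-1.08 ± 0.27, limma adjusted p = 0.0423). Cxcr3 was thus lowest in cDC, where Cxcl9 was highest.

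Xcr1, the receptor of Xcl1 and a marker of cross-presenting dendritic cells, measured 48.1 and 95.7 in IKDC, 50.9 and 99.3 in PDC, and 298.7 and 239.1 in cDC. It was called lower than in cDC both in IKDC (-1.74 ± 0.39 SE, limma adjusted p = 0.0248) and in PDC (-1.69 ± 0.39, limma adjusted p = 0.0388). Xcl1 was thus highest in the IKDC samples and Xcr1 in the cDC samples. Ccrl2, an atypical receptor, measured 164.8 and 101.3 in IKDC, 107.6 and 61.1 in PDC, and 437.5 and 397.2 in cDC, and was called lower in IKDC (-1.57 ± 0.35, limma adjusted p = 0.0222) and in PDC (-2.15 ± 0.35, limma adjusted p = 0.00517) than in cDC. Ccr1, which binds Ccl3, Ccl5, Ccl6 and Ccl9, measured 24 and 16 in IKDC, 81 and 10.7 in PDC, and 100.8 and 81.2 in cDC, and no difference passed.

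Of 8 genes for enzymes and proteoglycans that cleave or hold chemokines, 2 were called lower in IKDC than in cDC, beside 4.07% of all tested genes. Mmp12, a macrophage metalloprotease that trims CC and CXC chemokines, measured 38.1 and 30.6 in IKDC, 89.8 and 32.3 in PDC, and 1853.8 and 2780.4 in cDC. It was at least 37.8-fold lower in IKDC than in cDC (fitted log2 difference -5.51 ± 0.39 SE, limma adjusted p = 2.62e-05) and called lower in PDC than in cDC (limma adjusted p = 5.54e-05). Dpp4, a peptidase that removes the first residues of several chemokines, was at least 2.81-fold lower in IKDC than in cDC, at the edge of the threshold (fitted log2 difference -1.44 ± 0.38, limma adjusted p = 0.0497). In PDC 1 gene, Sdc4, a heparan sulfate proteoglycan, was called higher than in cDC (2.26 ± 0.45, limma adjusted p = 0.0174). Limma called 0 of the 8 between IKDC and PDC, and 1 was lower in IKDC at an unadjusted p under 0.05.

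Genes of the interferon gamma response, the pathway known to induce Cxcl9, had calls in both directions. Of 11 tested, 2 were called higher and 2 lower in IKDC than in cDC, beside 3.50% and 4.07% of all tested genes, and 2 were called higher in IKDC than in PDC, beside 2.71%. In PDC against cDC limma called 0 of the 11. At an unadjusted p under 0.05, 1 of them was higher in PDC and 2 were lower. The guanylate-binding protein gene Gbp2 measured 154.6 and 141.3 in IKDC, 11.9 and 21.7 in PDC, and 17.2 and 48.2 in cDC. Gbp3 measured 541.9 and 535.5 in IKDC, 213.2 and 185.3 in PDC, and 133.8 and 147.2 in cDC. Both guanylate-binding protein genes were called higher in IKDC than in cDC (at least 2.46-fold for Gbp2, limma adjusted p = 0.0465, and a log2 difference of 1.83 ± 0.28 SE for Gbp3, limma adjusted p = 0.00234). The immunoproteasome subunit gene Psmb9 (-1.09 ± 0.26, limma adjusted p = 0.0319) and the receptor chain gene Ifngr2 (-0.99 ± 0.24, limma adjusted p = 0.0457) were called lower there. Of 7 tested genes for NF-kappaB subunits and inhibitors, limma called 0 in each of the 3 comparisons. At an unadjusted p under 0.05, 2 were lower in IKDC than in cDC, 3 were lower in PDC than in cDC and 2 were higher in IKDC than in PDC.

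Across the 6 samples the profile nearest to each ligand was sought among probe sets of the same array type, by the root mean square difference of log2(signal + 16) after removing each probe set's mean. For Ccl5 the nearest genes were Prf1, the pore-forming protein of cytotoxic granules (0.23), and Dgka (0.27), among 6342 probe sets searched. Xcl1 was nearest to Gbp7 (0.10) and Myc (0.23), Ccl3 to Ugcg (0.17) and Dusp2 (0.26), and Ccl4 to Pou2af1 (0.19) and Klf10 (0.21). On the cDC-high side, Cxcl9 was nearest to Batf3, a transcription factor of cross-presenting dendritic cells (0.20), and to C1qa (0.29). Ccl6 on U74A was nearest to the class II peptide-loading genes H2-DMa (0.23) and H2-Oa (0.32), and Ccl9 to the neutrophil attractant gene Cxcl2 (0.43) and the decoy receptor gene Il1r2 (0.49). Ccl22 was nearest to Lcor (0.10) and Plk3 (0.11), and Ccl6 on U74C to Cbr3 and Htr7 (both 0.44) among 5183 probe sets. Ugcg, Pou2af1, Lcor and Cbr3, among others, had signals under 60 in some samples, where the distance depends on the added 16. Among the tested ligand probe sets, the 5 highest values of Pearson's r over the 6 samples were 0.98 for Ccl6 (U74C) and Ccl22, 0.96 for Ccl4 and Ccl5, 0.94 for Ccl6 (U74A) and Ccl9, 0.94 for Ccl5 and Xcl1, and 0.93 for Ccl3 and Xcl1. Ccl6 on U74A gave a lower value with Ccl22, 0.85, and the 2 Ccl6 probe sets gave 0.86 with each other. These values describe 6 samples in 3 populations measured on the same array types, and carry no test.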

How the data were processed

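The 6 samples, 2 of each population, were each measured on 3 array types. Per the labels' protocols, RNA was amplified in 2 rounds, which favours the 3' ends of transcripts, and biotin-labelled cRNA went onto the arrays. As deposited, the values are linear signal intensities that the authors made with GCOS 1.1.1 and scaled to a target of 150, per the labels, and the submitters' processing notes name MAS5. No probe set has an unscaled value here, and no detection calls were used.

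From the deposited intensities, log2(signal + 16) was computed, which understates differences of dim probe sets. Leaving out 198 control probe sets, the 23285 of 36701 probe sets at 60 or more on at least 2 of 6 arrays were fitted per array type with limma 3.58.1 in R 4.3.3 (intensity trend, 3 populations in 1 model, 3 residual degrees of freedom before moderation) and adjusted together by Benjamini-Hochberg, at a threshold of 0.05. Some probe sets, among them those of Cxcl9, Cxcl1, Gbp2 and C1qa, reached 60 in 1 population alone and were admitted to testing through it. The kappaB-like and ISRE motifs were shortened after their longer forms had been searched. Where both signals of the dimmer population were under 60, the fold is a bound, the other population's geometric mean (signals under 60 taken as 60) over 60. Symbols came from the platform annotation, updated by gene identifier, and 29131 probe sets had 1 symbol, 724 several and 6846 none listed. A further listed gene is represented by its tested probe set with the highest mean signal. The text names all probe sets of the 10 chemokine genes, from each other chemokine-related list up to 4 called genes of lowest adjusted p in a comparison (where none was called, up to 2 of highest mean signal), and the 2 nearest profiles of each ligand. C1qa, Cd68 and Ccr1 were also given after their values were seen, and so were the overlaps of promoter windows. The chemokine genes and all lists were chosen with earlier results of these data known. Same-numbered samples deviated together with correlations of -0.09 to 0.24, so the numbers were not taken as pairs. 1 listed receptor gene is not reported here.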

Additional observations from a re-analysis of the deposited data

How the results depend on the processing

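For 27 gene results, 429 values were recomputed under 10 alternative settings and by leaving out each sample. Of these 378 kept their direction and their side of the threshold, 33 lost a call, 7 gained one and 11 changed sign, none of them a called result. The causes were not tested.

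In IKDC versus cDC, 5 chemokine probe sets were called with a pseudocount of 1, 5 without the signal minimum and 5 without the intensity trend, instead of 8, and 4 to 8 when 1 sample was left out (4 without IKDC replicate 1, cDC replicate 1 or cDC replicate 2). In PDC versus cDC the count was 1 with a pseudocount of 1 and 1 without the trend, instead of 2, and 1 to 2 when 1 sample was left out (1 without cDC replicate 1 or cDC replicate 2). In IKDC versus PDC it was 5 with the replicate number as a block, which added Ccl4 and Ccl6 to the 3 called otherwise, and 2 to 5 when 1 sample was left out (2 without IKDC replicate 1, 5 without PDC replicate 2). It was 4 with a pseudocount of 1 and 4 with adjustment within each array type, Ccl6 being added. The block left the counts of 8 and 2 in the other comparisons as they were. A minimum of 200 removed the U74A probe set of Ccl6, so no value exists for it there.

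Differences that changed sign were all far from the threshold. Cxcl9 in IKDC versus PDC was 0.14 after quantile normalization and 0.082 after median centring, against -0.05, and ran from -0.31 to 0.22 when 1 sample was left out. On leaving out 1 sample, Ccl4 in PDC versus cDC ran from -0.44 to 0.70, Ccl5 in PDC versus cDC from -0.79 to 0.66, Ccl22 in IKDC versus PDC from -0.78 to 0.16, and Ccl6 on U74C in IKDC versus PDC from -1.70 to 0.20. Median centring put the median of all tested probe sets in IKDC versus cDC at 0.11, against -0.01. Over all probe sets, leaving out 1 sample gave 593 to 1656 calls in IKDC versus cDC (1305 with all samples), 327 to 719 in PDC versus cDC (849) and 493 to 869 in IKDC versus PDC (1036). A sample left alone in its population was assumed to vary like the others. The 2 samples per population limit the precision, and signals under 60 only bound a level.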
